A study of Mus musculus with 18 samples.

Results

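The DNA methylation machinery of reprogramming mouse fibroblasts was followed through 8 genes: the methyltransferase genes Dnmt1, Dnmt3a and Dnmt3b, their cofactor genes Dnmt3l and Uhrf1, and the dioxygenase genes Tet1, Tet2 and Tet3. The genes were taken by name, and each was read from the probe of highest mean signal among the probes that carry its symbol alone. All 8 were found among the 19938 genes with such a probe. Expression was measured on 18 Affymetrix Mouse Gene 1.0 ST arrays, whose probes lie along whole transcripts. A signal is an intensity on a linear scale, and differences between groups are on the log2 scale, where 1 means a 2-fold difference. No detection call came with the signals, so a low signal is not proof that a gene was silent, and levels were compared within a gene only.

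The starting cells were embryonic fibroblasts (MEFs) with ROSA-rtTA, the doxycycline-responsive transactivator, and a Nanog-GFP reporter. They received a piggyBac transposon with 1 of a pair of polycistronic cassettes of Oct4, Klf4, c-Myc and Sox2, called OKMS (low-KLF4) and OK+9MS (high-KLF4). The cassettes differ in the length of the Klf4 cDNA. Cells were kept in doxycycline at 1 µg/mL in ES cell medium, and cells that still expressed the cassette were sorted by its mCherry on days 2, 4, 8 and 18, with 1 array per cassette on days 2, 4 and 18 and 2 arrays per cassette on day 8. Because fully reprogrammed cells silence the cassette, the mCherry+ cells of day 18 leave out cells that had already done so, and the cultures had been passaged on day 8. The other arrays were 4 iPSC clones, each of 1 array (low-KLF4 gave A7 and A9, high-KLF4 A10 and H10), 2 arrays of the single mESC line 1A2, which carries Nanog-GFP, and 2 of primary keratinocytes from pups at postnatal day 2. Separate experiments stand behind the pairs of day 8, mESC and keratinocyte arrays by the study's account, while days 2, 4 and 18 have no replicate within a cassette.

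DNA methylation is copied at each cell division and can also be written anew or removed. DNMT1 copies methyl marks onto the new strand behind the replication fork, where UHRF1 recognises the half-methylated sites and recruits it. DNMT3A and DNMT3B write marks on unmethylated DNA, helped by DNMT3L, which has no catalytic activity of its own. The TET enzymes oxidise methylcytosine, the first step of its removal. Dnmt3b, Dnmt3l and Tet1 are known as genes of pluripotent and early embryonic cells, and Tet3 as the TET gene of oocytes and many differentiated cells.

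The genes lie on 7 chromosomes (GRCm38.p6, RefSeq): Dnmt1 on chromosome 9 from 20907206 to 20959888, Uhrf1 on 17 from 56303337 to 56323486, Dnmt3a on 12 from 3801559 to 3914443, Dnmt3b on 2 from 153649411 to 153687730, Dnmt3l on 10 from 78042287 to 78063622, Tet1 on 10 from 62804570 to 62887469, Tet2 on 3 from 133463677 to 133545136 and Tet3 on 6 from 83362373 to 83457208. The RefSeq promoter table held 15 windows for the 8 genes, each of 250 bases before and 50 after an annotated start. The windows were searched on both strands for an E2F site, the motif of the transcription factors of S phase, written as TTTCCCGC, TTTGGCGC, TTTCGCGC or TTTGCCGC. Of all 32851 windows in the table, 2.26% held 1 or more of these motifs, each of which contains a CpG. Among the 15, a window of Dnmt1 (chr9:20952574-20952873, minus strand) held 2 and a window of Uhrf1 (chr17:56304063-56304362, plus strand) held 1, and none was found in the windows of the other 6 genes. These are shown first because Dnmt1 and Uhrf1 had like profiles over the arrays, with the matched letters in capitals. The Dnmt1 stretches begin their matches at positions -219 and 34 from the start (chr9:20952825-20952852 and chr9:20952574-20952600), and the match of Uhrf1 begins at position -185.
Dnmt1, first match: gtttccgcgcGCGCGAAAaagccggggt
Dnmt1, second match: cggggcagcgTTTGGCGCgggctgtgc
Uhrf1, whole window: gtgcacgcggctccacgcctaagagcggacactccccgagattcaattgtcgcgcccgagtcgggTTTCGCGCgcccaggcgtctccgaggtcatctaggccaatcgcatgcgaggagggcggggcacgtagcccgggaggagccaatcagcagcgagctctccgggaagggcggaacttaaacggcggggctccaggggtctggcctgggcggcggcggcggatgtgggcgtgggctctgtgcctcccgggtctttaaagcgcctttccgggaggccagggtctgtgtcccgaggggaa

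The windows of Dnmt3b, Dnmt3l and Tet1 are shown because these 3 genes were the ones that were higher on day 18 than on day 8, and because their windows differ in CpG dinucleotides, the sites that the encoded enzymes act on. CpG dinucleotides are in capitals. The window of Dnmt3b (chr2:153649199-153649498, plus strand) held 30, the first of the 3 windows of Dnmt3l (chr10:78042037-78042336, plus strand) held 6 and the window of Tet1 (chr10:62887275-62887574, minus strand) held 17. The other 2 windows of Dnmt3l held 4 and 3. Over all windows the median was 7 and the 90th percentile 31. The highest count among the 15 was 57, in the window of Tet2. The arrays do not say which start was used.
Dnmt3b: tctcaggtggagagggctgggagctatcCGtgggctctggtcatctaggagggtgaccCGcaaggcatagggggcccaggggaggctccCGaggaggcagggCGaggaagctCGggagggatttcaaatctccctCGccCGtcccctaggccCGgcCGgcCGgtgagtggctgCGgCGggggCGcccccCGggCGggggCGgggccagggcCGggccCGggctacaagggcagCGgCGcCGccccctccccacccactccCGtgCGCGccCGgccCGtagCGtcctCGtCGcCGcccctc
Dnmt3l: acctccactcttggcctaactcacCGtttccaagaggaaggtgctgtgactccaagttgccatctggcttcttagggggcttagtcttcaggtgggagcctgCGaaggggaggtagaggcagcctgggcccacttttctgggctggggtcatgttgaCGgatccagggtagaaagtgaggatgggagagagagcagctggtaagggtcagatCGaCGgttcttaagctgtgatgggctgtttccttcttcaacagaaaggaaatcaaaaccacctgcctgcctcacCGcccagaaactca
Tet1: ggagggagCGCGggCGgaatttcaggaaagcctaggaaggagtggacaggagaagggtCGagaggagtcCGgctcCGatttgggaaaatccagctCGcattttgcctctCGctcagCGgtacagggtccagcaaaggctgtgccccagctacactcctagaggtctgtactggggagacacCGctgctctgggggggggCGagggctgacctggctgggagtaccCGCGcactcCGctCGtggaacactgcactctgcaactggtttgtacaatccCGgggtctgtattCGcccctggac

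Pluripotent cell markers read highest in mESCs and clones, and keratinocyte markers in keratinocytes. No array has a fibroblast, immune or endothelial label, so those lists do not check one. The mean log2 signal of 14 pluripotent cell markers lay between 11.2 and 11.4 in the iPSC clones and between 11.64 and 11.65 in mESCs, against 6.28 and 6.31 in keratinocytes. The day 2 arrays read 6.55 and 6.61, those of day 8 from 7.92 to 8.40, and those of day 18 9.98 and 10.4. That of 14 keratinocyte markers was 11.2 on both keratinocyte arrays and 6.97 to 7.03 in the clones, and ran from 7.66 to 9.51 on day 8. Replicate arrays correlated at 0.995 to 0.997 over 28853 probes except on day 8, where r was 0.977 for low-KLF4 and 0.98 for high-KLF4, and 1338 and 1100 probes differed 2-fold or more between the pair.

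The day 8 pairs also differed in the 8 genes. Array 2 read higher than array 1 for 7 of 8 genes in each cassette, by 0.33 to 1.70 on the log2 scale, and lower for Dnmt3l, by 0.27 in low-KLF4 and 0.56 in high-KLF4. Over all 23410 probes tested, 51.8% were higher on array 2 in low-KLF4 and 49.3% in high-KLF4. All 17 fibroblast markers read lower on array 2 in both cassettes, with medians of -2.10 in low-KLF4 and -1.82 in high-KLF4, while 20 and 22 of 24 genes of DNA replication and S phase read higher. In bulk RNA, fewer cells of a type and less RNA per cell cannot be told apart. The part of the fibroblast markers in the results on day 8 was not tested, and results that rest on 1 of these arrays are given with and without it. Where an array is left out, its day and cassette keep a single array, and its spread is then taken from the rest of the fit.

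**Figure D1:**
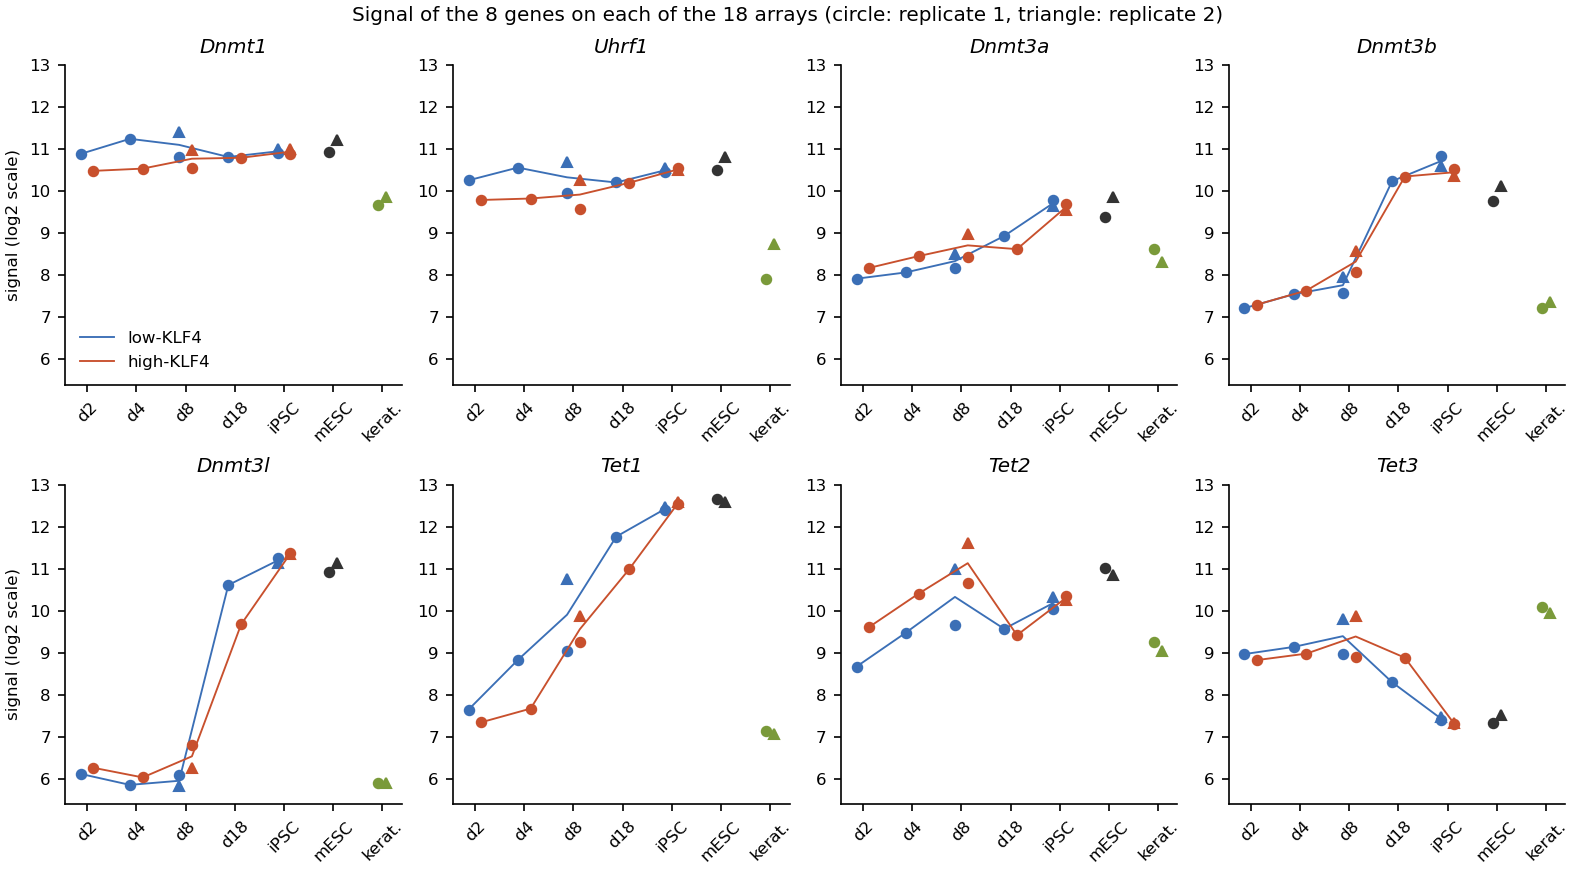
The vertical axis is the signal on the log2 scale and the horizontal axis the stage, for each of the 8 genes. Circles are replicate 1 or the first clone, triangles replicate 2 or the second clone, blue is low-KLF4, orange high-KLF4, black mESC and green keratinocyte, and lines join the group means of a cassette. Dnmt3l reads at most 112 up to day 8 and at least 816 from day 18 on, Tet1 is higher at each later stage, Tet3 is lowest in iPSC clones and mESCs, and Dnmt1 and Uhrf1 are lowest in keratinocytes.

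Dnmt1 and Uhrf1, the genes of maintenance methylation, passed none of the tests between stages from day 2 to the iPSC clones, and were lower in keratinocytes than in mESCs. Dnmt1 (probe 10591369) read 1899, 2434, 1789, 2714 and 1805 on days 2, 4, 8 (2 arrays) and 18 in low-KLF4, and 1435, 1490, 1513, 2033 and 1781 in high-KLF4. The clones lay within that range, at 1914 and 2048 for A7 and A9 and 1887 and 2058 for A10 and H10, and the mESC arrays read 1953 and 2368. Only the keratinocytes stood below, at 817 and 928. Uhrf1 (probe 10446074) read 1229, 1515, 997, 1671 and 1185 in low-KLF4 and 888, 910, 768, 1227 and 1178 in high-KLF4. Its clones lay between 1405 and 1501, mESCs at 1467 and 1804, and keratinocytes at 241 and 428.

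The test of iPSC clones against day 8 (limma, 4 arrays against 4, Benjamini-Hochberg adjustment over all probes tested) gave Dnmt1 a difference of 0.01 (95% interval -0.34 to 0.35, adjusted p = 0.977). Uhrf1 differed by 0.39 (-0.16 to 0.93, adjusted p = 0.231), and the arrays of both genes overlapped between the groups. The difference of Uhrf1 depended on the day 8 arrays used, at 0.74 (limma adjusted p = 0.0174) without those numbered 2 and 0.03 (adjusted p = 0.922) without those numbered 1. Against mESCs, keratinocytes were lower in Dnmt1 by 1.30 (SE 0.21, limma adjusted p = 0.00139, n = 2 arrays each), a 2.47-fold difference, and in Uhrf1 by 2.34 (SE 0.34, adjusted p = 0.000698), a 5.06-fold difference. All 24 measured genes of DNA replication and S phase and all 15 mitosis genes were also lower in keratinocytes, with medians of -1.86 and -2.42. Over all probes, 20.4% were called lower and 17.7% higher, with a median of 0.002. The part of these cell cycle genes in the lower Dnmt1 and Uhrf1 was not tested.

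Over the 12 group means, Dnmt1 and Uhrf1 had a Pearson r of 0.963 with each other, the second highest among the 28 pairs of the 8 genes. As a description over group means that share arrays and normalization, the genes most like Uhrf1 were Mcm7 (r = 0.994) and Mcm5, subunits of the replicative helicase, and Kif22, a mitotic kinesin (both 0.977). Those most like Dnmt1 were Prelid2 (0.983), Tenm3 (0.98) and Topbp1 (0.977), the last a replication checkpoint gene.

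The de novo genes had the wider range. Dnmt3l (probe 10364346) read 69.3, 57.8, 68.0 and 56.3 on days 2, 4 and 8 in low-KLF4 and 76.6, 65.4, 112 and 76.3 in high-KLF4, beside 59.6 and 60.1 in keratinocytes. On day 18 it read 1561 in low-KLF4 and 816 in high-KLF4, in the clones 2427, 2250, 2655 and 2597, and in mESCs 1931 and 2230. Every array from day 18 on lay far above every earlier array, and all signals up to day 8 lay below the lowest array median of 139.4. Day 18 was higher than day 8 by 3.90 (SE 0.27, limma adjusted p = 1.31e-05, 2 arrays against 4), and the clones were higher than day 8 by 5.03 (SE 0.12, adjusted p = 6.97e-08). No fold is given for these differences, since the lower signals were not shown to be above background. The clones were higher than day 18 by 1.13 (SE 0.27, adjusted p = 0.01).

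Dnmt3b (probe 10477325) read 149, 188, 190 and 249 through day 8 in low-KLF4 and 158, 200, 271 and 380 in high-KLF4. It read 1211 and 1308 on day 18, 1840, 1553, 1480 and 1330 in the clones, 867 and 1110 in mESCs, and 149 and 164 in keratinocytes. The day 18 arrays were thus above both mESC arrays and just below the lowest clone. Day 18 was higher than day 8 by 2.25 (SE 0.21, limma adjusted p = 0.000111), a 4.76-fold difference. The clones were higher than day 8 by 2.54 (SE 0.14, limma adjusted p = 6.91e-06), a 5.82-fold difference. These folds are uncertain, since the day 8 signals of 190 to 380 were not shown to be above background. Between day 18 and the clones the difference was 0.29 (-0.18 to 0.76, adjusted p = 0.336).

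Dnmt3a (probe 10394209) had a narrower range. It read 242, 269, 289, 363 and 490 in low-KLF4 and 290, 352, 348, 508 and 395 in high-KLF4 on days 2, 4, 8 and 18. The clones read 892, 799, 837 and 748, mESCs 669 and 939 and keratinocytes 398 and 318. All clones were above all mCherry+ arrays, while the day 18 arrays lay among those of day 8. The clones were higher than day 8 by 1.15 (SE 0.16, limma adjusted p = 0.000847) and higher than day 18 by 0.89 (SE 0.19, adjusted p = 0.00595), whereas day 18 and day 8 differed by 0.25 (-0.18 to 0.68, adjusted p = 0.447).

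Over the 12 group means, Dnmt3b and Dnmt3l had an r of 0.969, the highest among the 28 pairs, and Dnmt3a had 0.852 with Dnmt3b and 0.89 with Dnmt3l. The genes most like Dnmt3l were Ooep, known from oocytes (r = 0.998), Gm6083 (0.995) and Septin1 (0.995). Those most like Dnmt3b were Lefty2, an inhibitor of Nodal signalling (0.991), Dppa5a, a pluripotent cell gene (0.987), and Slc39a4, a zinc transporter (0.982). Mpv17l, Taf7 and Kdm4c, a histone demethylase, were most like Dnmt3a (0.977, 0.975 and 0.973).

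The TET genes went separate ways. Tet1 (probe 10369702) read 200, 453, 530, 1726 and 3467 in low-KLF4 and 162, 203, 610, 931 and 2021 in high-KLF4 on days 2, 4, 8 and 18. It read 5343, 5654, 5951 and 6161 in the clones, 6443 and 6142 in mESCs and 139 and 135 in keratinocytes. Each later stage was higher in both cassettes, and every mCherry+ array was above the keratinocytes. The clones were higher than day 8 by 2.77 (SE 0.32, limma adjusted p = 0.000297), a 6.80-fold difference. Day 18 was higher than day 8 by 1.64 (SE 0.41, adjusted p = 0.0204), and this call was lost without the day 18 array of low-KLF4 (limma adjusted p = 0.203) or of high-KLF4 (0.0612). The difference of 1.12 between day 18 and the clones did not pass (0.21 to 2.04, adjusted p = 0.0641). Tet1 has 3 probes with its symbol alone, and the other 2 gave 3.04 and 2.73 for clones against day 8. Both passed for clones against day 18, at 1.56 (limma adjusted p = 0.0386) and 1.20 (adjusted p = 0.0408), so the result of Tet1 in that step differs between its probes. For day 18 against day 8 they gave 1.48, which did not pass (limma adjusted p = 0.0704), and 1.53 (adjusted p = 0.022).

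Tet2 (probe 10502284) had its highest group means on day 8 within each cassette, which in low-KLF4 rests on array 2, since array 1 was below both clones. It read 406, 711, 813, 2023 and 758 in low-KLF4 and 782, 1354, 1613, 3105 and 683 in high-KLF4 on days 2, 4, 8 and 18. The clones read 1053, 1281, 1313 and 1221, mESCs 2067 and 1843 and keratinocytes 611 and 527. Both day 18 arrays were below all 4 day 8 arrays and below all 4 clones. The difference of day 18 against day 8 was -1.24 (-2.09 to -0.38, limma adjusted p = 0.0505) and just missed the threshold. It was -1.53 (adjusted p = 0.00957) without day 8 array 1 of low-KLF4, -1.05 (adjusted p = 0.0885) without array 2 of low-KLF4, and -0.67 (adjusted p = 0.124) without both arrays numbered 2. The clones differed from day 8 by -0.48 (-1.16 to 0.19, adjusted p = 0.227), with arrays that overlapped. The direction turned with the day 8 arrays used, at -1.05 (limma adjusted p = 0.00015) without those numbered 1 and 0.08 (adjusted p = 0.559) without those numbered 2. Without array 1 of low-KLF4 alone it was -0.81 (adjusted p = 0.0217), and without array 2 of low-KLF4 alone -0.15 (adjusted p = 0.604).

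Tet3 (probe 10545682) was opposite to Tet1 in the clones, mESCs and keratinocytes. Up to day 8 the group means of both genes rose in each cassette, which for Tet3 on day 8 rests on the arrays numbered 2. In high-KLF4 the day 18 array of Tet3 was still near its day 2 array. It read 500, 562, 503, 896 and 314 in low-KLF4 and 453, 504, 474, 941 and 471 in high-KLF4 on days 2, 4, 8 and 18. The clones read 167, 176, 158 and 160 and mESCs 162 and 184, and keratinocytes were highest at 1084 and 986. All clones lay below all mCherry+ arrays. The clones were lower than day 8 by 2.02 (SE 0.23, limma adjusted p = 0.000299), a 4.06-fold difference, and lower than day 18 by 1.22 (SE 0.28, adjusted p = 0.0082). The fold is uncertain, since the clone signals lay near the array medians of 139.4 to 161.6 and were not shown to be above background. The second probe of Tet3 gave -1.15 for clones against day 8 (adjusted p = 0.00148). Day 18 against day 8 gave -0.80 (-1.42 to -0.18, adjusted p = 0.0787), and did not pass. It was -0.95 (limma adjusted p = 0.0393) without day 8 array 1 of low-KLF4 and -0.99 (adjusted p = 0.0263) without that of high-KLF4, but -0.64 and -0.62 without array 2 of either (adjusted p = 0.134 and 0.141), and -0.35 (adjusted p = 0.172) without both arrays numbered 2.

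Tet1 had an r of 0.936 with Dnmt3b and 0.923 with Dnmt3l over the group means, and Tet3 had negative values with both (-0.788 and -0.88). The genes most like Tet1 were the pluripotent cell transcription factor genes Utf1 (0.989), Etv5 (0.988) and Zscan10 (0.987). Cnot6l, a subunit of the deadenylase complex (0.986), Erbin (0.981) and Arhgef12 (0.978) were most like Tet3. Tet2 had no close match: Hltf, a helicase-like factor of DNA repair, came first at 0.872, followed by Map2k6 (0.871) and Itpk1 (0.869).

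Counted over the 8 genes, 4 were higher and 1 lower in the iPSC clones than on day 8, beside 18.7% of all probes called higher and 19.8% called lower. These were Dnmt3a, Dnmt3b, Dnmt3l and Tet1 in 1 direction and Tet3 in the other. Their arrays did not overlap between the groups, but the share of all probes without overlap was not counted. Within each cassette the same 5 passed: the difference was 2.96 in low-KLF4 and 2.13 in high-KLF4 for Dnmt3b, 5.24 and 4.83 for Dnmt3l, 2.52 and 3.01 for Tet1, 1.38 and 0.91 for Dnmt3a, and -1.97 and -2.07 for Tet3. Over all probes, 10.8% were higher and 8.43% lower in that comparison in low-KLF4, and 14.7% and 13.5% in high-KLF4. The test of the difference between the cassettes' changes called 0 of 8 genes, beside 0.154% of probes higher and 0.671% lower, with 2419 before adjustment at p under 0.05. The difference in Tet1 turned with the low-KLF4 array of day 8, at 1.34 (limma adjusted p = 0.0431) without array 1 and -0.37 (adjusted p = 0.727) without array 2.

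Of the steps before, day 4 against day 2 called 0 of 8 genes, beside 0.00854% of probes higher and 0.0171% lower, with 1336 before adjustment at p under 0.05 in limma. Day 8 against day 4 also called 0, beside 0.00854% higher and 0.00854% lower, with 2154 before adjustment. In that step Tet1 differed by 1.48 (0.56 to 2.40, adjusted p = 0.309) and Tet2 by 0.79 (-0.07 to 1.64, adjusted p = 0.585). With the day 8 arrays numbered 1 left out, Tet1, Tet2 and Tet3 were at 2.06, 1.35 and 0.79 and passed, beside 1156 probes called higher and 1449 lower over all. With those numbered 2 left out they were at 0.90, 0.22 and -0.12 and did not pass, beside 230 and 185. Day 18 against day 8 called 3 higher and 0 lower, beside 7.72% and 10.2% of probes. The clones against day 18 called 2 higher and 1 lower, beside 17.1% and 13.2%. Those last 3 calls, of Dnmt3a, Dnmt3l and Tet3, were lost without the high-KLF4 array of day 18, with differences of 0.64, 0.51 and -0.88.

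**Figure D2:**
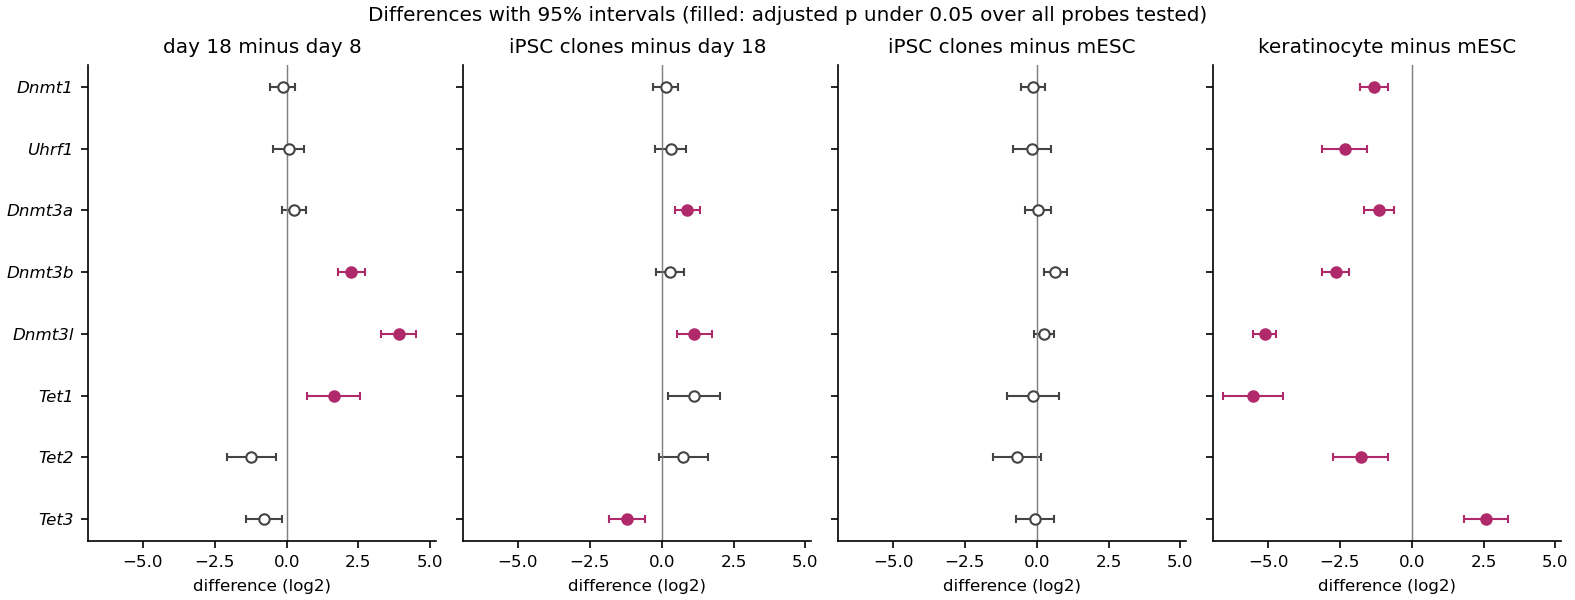
Points are log2 differences from limma and bars their 95% intervals, in 4 comparisons given above each panel, with a row for each of the 8 genes; filled points passed an adjusted p of 0.05. Dnmt3b, Dnmt3l and Tet1 pass in the step from day 8 to day 18, Dnmt3a, Dnmt3l and Tet3 in the step from day 18 to the clones, none between clones and mESCs, and all 8 between keratinocytes and mESCs.

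Set on a scale from the day 2 array to the mean of the clones of the same cassette, the genes covered the log2 difference at different times. Tet1 had covered 24.7% on day 4, 29.4% and 65.0% on the day 8 arrays and 86.1% on day 18 in low-KLF4, and 6.22%, 36.6%, 48.2% and 69.7% in high-KLF4. Dnmt3b stood at 10.0% and 21.1% on day 8 and 86.3% on day 18 in low-KLF4, and at 24.7%, 40.2% and 96.8% in high-KLF4. Dnmt3l stood between -5.9% and 10.8% on all 4 day 8 arrays, and at 88.5% and 66.9% on day 18. Dnmt3a stood at 14.2% and 32.3% on day 8 and 56.5% on day 18 in low-KLF4, and at 18.1%, 55.8% and 30.7% in high-KLF4. The timing was not tested, since days 4 and 18 have 1 array per cassette.

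**Figure D3:**
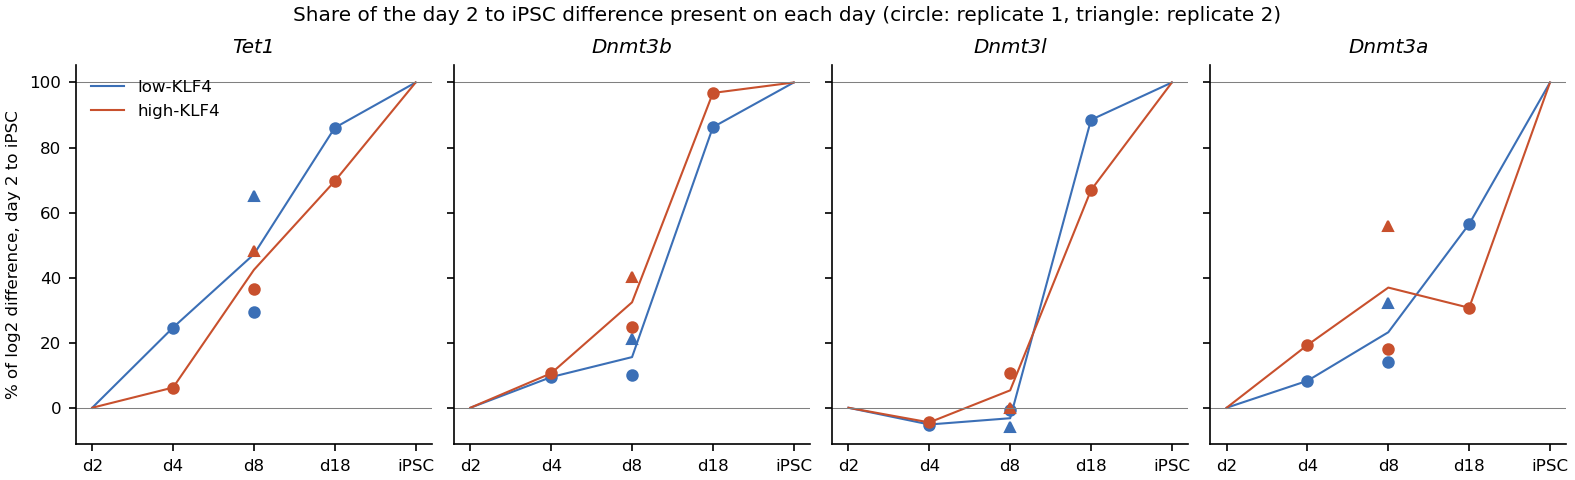
The vertical axis is the percent of the log2 difference between day 2 and the mean of the cassette's iPSC clones, and the horizontal axis the stage, with 0% on day 2 and 100% in the clones by construction. Circles are replicate 1, triangles replicate 2 and lines the mean, in blue for low-KLF4 and orange for high-KLF4. Tet1 lies between 29.4% and 65.0% on day 8, where Dnmt3l lies between -5.9% and 10.8%.

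Between the cassettes, none of the 8 genes passed on day 8, beside 2.71% of probes called higher and 1.29% lower in high-KLF4 (3785 before adjustment, at p under 0.05). With the array number as a replicate block, Dnmt3b, Dnmt3l and Tet2 passed as higher in high-KLF4 (limma adjusted p = 0.0292, 0.0073 and 0.00638). Over all 23410 probes the block raised the calls from 634 higher and 301 lower to 1752 and 1195. The differences between array 2 and array 1 had an r of 0.728 between the cassettes over probes, but there are only 2 such pairs, and no label states that the numbers pair the arrays. Over all days, with day as a block and 5 arrays against 5, 0 of 8 passed as well, beside 0.158% higher and 0.00427% lower (3718 before adjustment). Tet2 was higher in high-KLF4 by 0.95 on day 2 and 0.93 on day 4, and by 0.80 on day 8 (-0.15 to 1.76, limma adjusted p = 0.412), where array 1 of low-KLF4 read below the other 3. On day 18 the difference was -0.15. Set array against array by number, the day 8 difference was 0.99 for those numbered 1 and 0.62 for those numbered 2.

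Dnmt1 and Uhrf1 were lower in high-KLF4 on days 2 and 4, by 0.40 and 0.71 for Dnmt1 and by 0.47 and 0.74 for Uhrf1, and within 0.02 of low-KLF4 on day 18. On day 8 the differences were -0.33 (-0.82 to 0.16, limma adjusted p = 0.547) and -0.41 (-1.18 to 0.36, adjusted p = 0.663), with arrays that overlapped. The mitosis list had a median of -0.35 and the S phase list of -0.28 in the same comparison, against -0.03 over all probes. The part of cell cycle genes in the difference was not tested. Dnmt3b and Dnmt3l were higher in high-KLF4 on day 8 by 0.56 (0.09 to 1.03, limma adjusted p = 0.206) and 0.58 (0.18 to 0.98, adjusted p = 0.125), and did not pass. Their arrays did not overlap, although Dnmt3l then read at most 112. The share of all probes without overlap was not counted, and 2 arrays against 2 may separate by chance. Dnmt3l was at 0.86 (limma adjusted p = 0.0255) without the high-KLF4 array 2 and at 0.30 (adjusted p = 0.241) without the high-KLF4 array 1.

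Tet1 differed by -0.34 on day 8 (-1.38 to 0.69, adjusted p = 0.816), and its day 8 arrays of low-KLF4 were 530 and 1726, on either side of both high-KLF4 arrays. The direction turned with the low-KLF4 array used, at -1.20 (limma adjusted p = 0.0147) without the array of 530 and 0.51 (adjusted p = 0.33) without that of 1726. By array number the differences were 0.20 for array 1 and -0.89 for array 2. On the other days Tet1 was lower in high-KLF4 by 0.30, 1.16 and 0.78. On day 18 the largest differences of high-KLF4 from low-KLF4 were -0.94 in Dnmt3l, -0.78 in Tet1 and 0.58 in Tet3, each from 1 array per cassette.

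**Figure D4:**
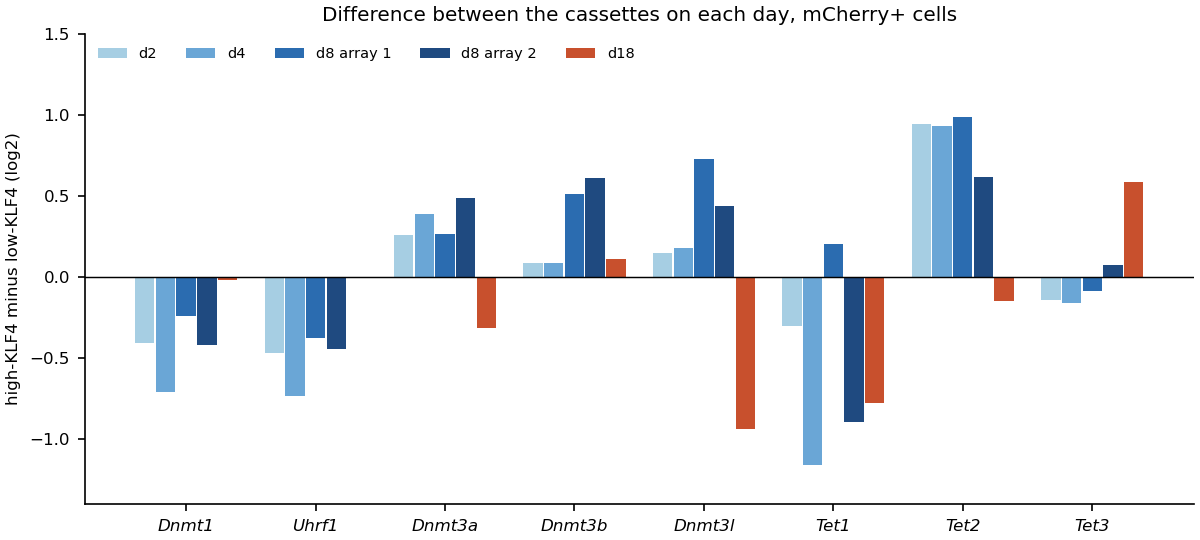
Bars give the log2 signal of high-KLF4 minus that of low-KLF4 for each of the 8 genes, from blue for days 2, 4 and 8 to orange for day 18, with the day 8 arrays set side by side by their number. Tet2 lies between 0.62 and 0.99 up to day 8 and at -0.15 on day 18, and Dnmt1 and Uhrf1 lie below 0 up to day 8 and near 0 on day 18.

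The iPSC clones of the cassettes did not differ in any of the 8 genes by the test, beside 0% of probes called higher and 0% lower (limma, 224 before adjustment at p under 0.05). The differences ran from -0.27 in Dnmt3b (-0.74 to 0.20) to 0.17 in Dnmt3l (-0.23 to 0.57), and the intervals of Tet1 and Tet2 were wider, at -0.90 to 1.17 and -0.83 to 1.08. The fit takes 1 spread per gene over all groups, so the intervals do not give the spread between clones. In log2, Tet1 had an SD of 0.06 in the low-KLF4 and 0.04 in the high-KLF4 clones, against 1.20 and 0.43 on day 8. For Tet2 the SDs were 0.20 and 0.07, against 0.93 and 0.67.

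The clones against mESCs called 0 of 8, beside 2.02% of probes higher and 2.28% lower (4231 before adjustment). Dnmt3b was higher in the 4 clones than on both mESC arrays, by 0.65 (0.25 to 1.05, limma adjusted p = 0.0857), a 1.57-fold difference. Tet2 was lower in all 4 clones, by 0.69 (-1.51 to 0.14, adjusted p = 0.375), a 1.61-fold difference. Both passed when limma was fitted on these 6 arrays alone (adjusted p = 0.0151 and 0.00651). That fit called more probes in general, 2149 of 23410 higher and 1559 lower, against 474 and 534 in the main fit. The arrays of Dnmt3l did not overlap either, at 0.26 (-0.09 to 0.60, limma adjusted p = 0.44). The share of all probes without overlap was not counted here, so these separations are description only. For Dnmt1, Uhrf1, Dnmt3a, Tet1 and Tet3 the arrays overlapped, and the difference lay between -0.15 and 0.04.

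Keratinocytes against mESCs called 7 of 8 lower and 1 higher, beside 20.4% of probes lower and 17.7% higher. Tet1 was lower by 5.52 (SE 0.45, limma adjusted p = 3.15e-05), and Dnmt3l differed by -5.12 (SE 0.18, adjusted p = 2.98e-07), with keratinocyte signals below the lowest array median for Dnmt3l and near it for Tet1. Dnmt3b was lower by 2.65, Tet2 by 1.78 and Dnmt3a by 1.15, and Tet3 was higher by 2.58 (SE 0.33, adjusted p = 0.000364), which is 5.99-fold. That fold rests on mESC signals near the array medians, and the second probe of Tet3 gave a smaller difference of 1.53 (limma adjusted p = 0.00159). The call of Tet2 was lost without mESC array 1 (limma adjusted p = 0.0545) or keratinocyte array 2 (0.0534).

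The partners of the machinery were counted in the same comparison of clones against day 8, where the median over all probes was -0.05 and 18.7% of probes were higher and 19.8% lower. Of 14 maintenance partners, 6 were higher and 0 lower, with a median of 0.25. The highest were Hells, a chromatin remodeller needed for methylation (1.48, SE 0.19, limma adjusted p = 0.000469), and Cdca7, its activator (0.90, SE 0.17). Of 7 readers of methylated CpG sites, 0 were higher and 3 lower, with a median of -0.25: Mbd2 was lower by 1.04 (SE 0.06, adjusted p = 8.21e-06) and Mbd1 by 0.36 (SE 0.09). Of 16 genes of demethylation and base excision repair, 6 were higher and 2 lower, with a median of 0.27. Apobec3, a cytidine deaminase, and Neil3, a DNA glycosylase, were higher by 1.14 and 1.04, and Gadd45g and Smug1 were lower by 0.86 and 0.45.

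Of 13 genes of TET cofactors and of oxoglutarate, the cosubstrate of TET enzymes, 3 were higher and 3 lower, shares close to those over all probes, with a median of 0.03. Idh1 was higher by 0.71 and Idh2 lower by 0.42, the cytosolic and the mitochondrial isocitrate dehydrogenase genes, and of the CXXC genes Cxxc5 was higher by 0.73 and Cxxc4 lower by 0.47. Of 14 genes of methyl donor metabolism, 5 were higher and 3 lower, with a median of 0.22. Ahcyl2 and Shmt1 were higher by 0.79 and 0.67, and Mtr, the methionine synthase gene, and Nnmt, which methylates nicotinamide, were lower by 1.52 and 1.05.

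Of 20 histone and chromatin partners, 13 were higher and 0 lower, with a median of 0.64. The highest were Dppa3, which protects maternal DNA methylation in the early embryo (3.41, SE 0.08, limma adjusted p = 4.3e-08), and Lin28a (2.68, SE 0.13), which is also on the list of pluripotent cell markers. Of 18 germline genes that DNA methylation is known to silence in somatic cells, 13 were higher and 0 lower, with a median of 0.72, Mael by 4.61 (SE 0.10) and Sycp3 by 4.02 (SE 0.24). Their mean log2 signal ran from 5.67 to 5.75 on day 8 and from 6.80 to 6.997 in the clones, with 5.89 and 6.11 on day 18, 7.22 and 7.23 in mESCs, and 5.58 and 5.66 in keratinocytes. On day 18 against day 8, 4 of these 18 were higher and 0 lower, beside 7.72% and 10.2% of all probes. Against mESCs the clones were lower in 5 of 18 and higher in 1, beside 2.28% and 2.02% of all probes.

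Cell cycle and cell type lists moved with the same comparison. Of 24 genes of DNA replication and S phase, 18 were higher in clones than on day 8 and 0 lower, with a median of 0.84, led by Ccne1 (1.55) and Rfc4 (1.30), and of 15 mitosis genes 10 were higher, with a median of 0.59, led by Bub1 (1.33) and Ccnb2 (0.96). All 14 pluripotent cell markers were higher, with a median of 2.88, led by Dppa5a (5.31) and Dppa2 (5.13). Of 17 fibroblast markers 7 were lower and 0 higher, led by Dcn (-3.33) and Lum (-2.73), and of 14 keratinocyte markers 10 were lower and 0 higher, led by Itgb4 (-3.69) and Krt14 (-3.39). The mean log2 signal of the fibroblast markers ran from 8.80 to 10.96 on day 8, was 10.34 and 10.36 on day 18, and ran from 8.55 to 8.87 in the clones. Of 10 immune cell markers 5 were higher and 0 lower, led by Lyz2 (3.81) and Cd79a (1.01), and of 7 endothelial markers 2 were higher, Pecam1 (3.09) and Emcn (1.30), and 3 lower, led by Tek (-1.29) and Tie1 (-0.90). The part of these lists in the differences of the 8 genes was not tested.

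On day 18 against day 8, where Dnmt3b, Dnmt3l and Tet1 passed and 7.72% of all probes were higher and 10.2% lower, 11 of 14 pluripotent cell markers were higher, with a median of 2.04. Over the same step 0 of 24 S phase genes were higher and 4 lower, and 0 of 14 maintenance partners were higher and 1 lower. Of 7 readers 3 were lower, and of 20 chromatin partners 6 were higher. Of the fibroblast markers 1 of 17 was higher and 0 lower. Of 10 immune cell markers 4 were higher and 0 lower, with Lyz2 at 2.01. Of 7 endothelial markers 3 were higher, Cdh5 (3.26), Pecam1 (1.33) and Vwf (0.38), and 1, Tek, lower (-2.71). The part of these markers in the differences of the 8 genes was not tested.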

How the data were processed

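The authors hybridised total RNA to Affymetrix Mouse Gene 1.0 ST arrays and deposited RMA-normalized signal intensities on a linear scale (background corrected, quantile normalized, summarised per transcript cluster, which is called a probe here). Of 28853 probes, 23410 had at least 1 gene symbol and were tested, and 5443 had none. Signals ran from 20.2 to 19539, with array medians of 139.4 to 161.6. The number of arrays limits the precision, and p-values measure the spread between these arrays.

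Log2 was taken and limma 3.58.1 (R 4.3.3) fitted with eBayes and Benjamini-Hochberg adjustment at 0.05. A fit of 12 group means over 18 arrays (6 residual degrees of freedom) gave the comparisons among day 8, clones, mESCs and keratinocytes. A fit of stage plus cassette over 14 arrays (8) gave the steps between days, in which the cassettes serve as the arrays of a day. A fit of cassette plus day over 10 arrays (5) compared the cassettes. A gene passed, or is called higher or lower, where its adjusted p over all 23410 probes was under 0.05. The fits were also run on simulated data with 200 changed probes each. The simulated noise was independent between arrays and lacked the day 8 differences shared by the cassettes, so no result here rests on it.

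The 8 genes and 14 lists (217 entries, 14 of them not reported here) were chosen with earlier results of these data known. Named genes were the 8, the 3 most like each in Pearson r over group means among 8374 genes with a range of at least 1 on the log2 scale, and per list the 2 largest changes each way among those called in clones against day 8. Alternatives were a filter on dim probes, a second quantile normalization, limma-trend, the mean of all probes of a gene, other fits, a replicate block and leaving out each array. Python 3.11.15, pandas 2.3.3 and matplotlib 3.10.9 made counts and figures. Promoter windows are from RefSeq (GRCm38.p6).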

Additional observations from a re-analysis of the deposited data

How the results depend on the processing

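No difference of the 8 genes reversed a call in 1264 recomputed values, of which 1229 kept their side of the threshold, 28 newly passed and 7 no longer passed; in 53 a difference that had not passed changed sign. The 5 calls of iPSC clones against day 8 passed in all 19 alternatives with a test, and with 2-fold in place of a test the count was 5 too. Leaving out each array in turn gave 0 to 1 called genes on day 8 between the cassettes, 0 to 1 for the difference between their changes, 2 to 5 for day 18 against day 8 and 0 to 3 for the clones against day 18 (3 in the report). The count on day 8 between the cassettes was 0 of 8, and became 3 with a replicate block (Dnmt3b, Dnmt3l and Tet2, with limma adjusted p of 0.0292, 0.0073 and 0.00638), 2 with both day 8 arrays numbered 2 left out and 1 with both numbered 1 left out, where 1 array stands against 1 and the spread comes wholly from other groups; these pairs are only 2, so the numbers were not taken to pair the arrays. For clones against day 8, the replicate block sets the day 8 level at that of the arrays numbered 1. Uhrf1 then passed (0.74, limma adjusted p = 0.0125), with the same difference as without those numbered 2, so this is no separate support. Apart from Uhrf1 and the 3 genes above, no call of the 8 genes changed where the block was run. Leaving out both arrays numbered 1, chosen like its counterpart after seeing the data, gave 3 called genes for day 8 against day 4 and 5 for day 18 against day 8. A 2-fold difference with no test gave 1, Tet1, for day 8 against day 4. A fit of the compared arrays alone gave 2 for clones against mESCs. Tet2 passed for day 18 against day 8 with the dimmest 30% of probes left out (0.0374), with limma-trend (0.04) and in the fit of 12 groups (0.0479), and Tet1 for clones against day 18 with those probes left out (0.04998) and with the mean of all probes of a gene (0.0455). Over all probes, calls of high-KLF4 against low-KLF4 on day 8 went from 634 higher and 301 lower to 1752 and 1195 with the block and to 0 and 0 in a fit of the 4 arrays alone, and those of clones against mESCs from 474 and 534 to between 92 and 2149 and between 168 and 1559. Calls of clones against day 8 (4377 and 4638) ranged from 1080 to 5399 and 1010 to 6364, of day 18 against day 8 (1808 and 2384) from 599 to 2797 and 502 to 3461, of clones against day 18 (4009 and 3083) from 1063 to 4439 and 826 to 3551, of keratinocytes against mESCs (4134 and 4783) from 2051 to 4539 and 2402 to 5393, of day 8 against day 4 (2 and 2) from 0 to 1156 and 0 to 1449, of day 4 against day 2 (2 and 4) from 0 to 127 and 0 to 59, of the cassettes over days (37 and 1) from 2 to 654 and 0 to 232, and of the difference between changes (36 and 157) from 5 to 335 and 37 to 843. Having 1 or 2 arrays per group limits all of these. The cause of these moves was not tested.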
